A study of Mus musculus with 2 samples.

Results

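The 42 genes described here encode extracellular matrix and basement membrane proteins: collagens, laminins, nidogens, perlecan, fibronectin and matricellular proteins, elastic fibre and microfibril components and matrix proteoglycans. They were chosen as a named list of matrix genes, with earlier results of these data known, and all 42 were found among the 31055 genes of the count tables. For the description they were sorted into 9 groups by the known role of the protein. Their RNA was measured by droplet single cell RNA sequencing (10x Genomics, 3′ end counting) of endothelial cells sorted from 2 tumor models, with 1 library per model. KPC is a pancreatic cancer line and PyMT a breast cancer line, and each was implanted at its organ of origin. The hosts of both models were wild-type female C57BL6 mice aged 6 weeks. They received 100000 tumor cells, and tumors were taken after 10 days. The tumors were digested with collagenase D and DNase I, at a higher collagenase D concentration for KPC. Before the sort, cells bound by CD45, EpCAM, Ter119, podoplanin or Annexin V reagents were depleted, yet some fibroblasts, lymphatic cells and cells with Krt8 and Krt18 UMIs stayed in both libraries. The cells with keratin UMIs had 6 other epithelial genes (among them Krt19, Epcam and Cdh1) at 4600.8 CPM (UMIs per 1000000 UMIs) in KPC and at 42.79 CPM in PyMT, so in PyMT these cells are named by their keratins alone. How many mice went into each library is not given in the sources used here, and there was no untreated control. Tumor site, digestion and library cannot be told apart, so no difference between KPC and PyMT was tested.

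A blood vessel wall begins with a basement membrane, a sheet in which a collagen IV network and a laminin network are linked by nidogens and perlecan, and on which endothelial cells sit. Endothelial cells make much of this sheet themselves. Arteries add elastic fibres, in which elastin is laid on fibrillin microfibrils with the help of fibulins. Fibrillar collagens are made chiefly by fibroblasts. Fibronectin, thrombospondin and tenascin form provisional matrix around growing vessels.

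The KPC library held 10236 barcodes with 44441942 UMIs (unique molecular identifiers, each standing for 1 captured RNA molecule) and the PyMT library held 12464 barcodes with 55547926 UMIs. A minimum of 500 genes and a mitochondrial share below 10% left 9591 and 11744 cells. The libraries shared 151 kept barcodes. Cells were sorted into classes by the summed UMIs of a pair of genes per class, such as Car4 and Cd300lg for capillary, Apln and Angpt2 for tip, Gja5 and Sema3g for artery, and Ackr1 and Selp for venule cells. In KPC this gave 1298 capillary, 1305 tip, 105 artery, 641 venule and 803 lymphatic cells, with 400 fibroblasts. In PyMT it gave 2597 capillary, 1991 tip, 126 artery, 360 venule and 633 lymphatic cells, with 27 fibroblasts. Median UMIs per cell ran from 1879.5 (KPC capillary) to 5845 (PyMT tip), and both artery classes lay between them.

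Endothelial markers that the class rules did not use bore out the artery class in both libraries and the other class names in part. Gja4, an arterial connexin, was at 1879.6 CPM in KPC artery cells and 204.3 CPM in KPC capillary cells, and at 1944.0 against 82.64 CPM in PyMT. Lrg1, a venular gene, was highest in the venule class of both libraries (3574.7 and 2814.4 CPM). Esm1, a tip cell gene, was at 892.8 CPM in KPC tip and 371.2 CPM in KPC capillary cells, and at 398.8 against 83.35 CPM in PyMT. Other markers went against a name. Vwf, on the venule list, was at 269.0 CPM in artery and 252.0 CPM in venule cells of KPC, and at 369.1 and 244.0 CPM in PyMT. Plvap, on the tip list, was higher in capillary than in tip cells of both libraries, and Kcne3, on the same list, was at 145.3 CPM in artery and 112.6 CPM in tip cells of KPC. The capillary markers Rgcc, Gpihbp1 and Cd36 were highest in the capillary class in KPC but not in PyMT. There Gpihbp1 was at 1167.5 CPM in tip and 1075.8 CPM in capillary cells, Rgcc at 766.4 and 655.2 CPM, and Cd36 at 400.0 CPM in venule and 320.8 CPM in capillary cells.

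Levels below are CPM from the UMIs of a class summed over its cells. Intervals in square brackets are exact 95% intervals that cover counting error only, since cells of 1 library are not replicates. A gene is called higher or lower between classes where its CPM differed at least 2-fold, a log2 ratio of 1 or more in size, with at least 20 UMIs in the 2 classes together. In a bulk sum of this kind, more cells making a gene and more RNA per cell cannot be told apart, so the share of cells with a UMI is added where a result turns on it.

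Matrix RNA made up a similar part of the capillary and tip transcriptomes in both models and a larger part in artery cells. The 42 genes together were at 9759.3 CPM in KPC capillary, 10184.0 in tip, 8271.9 in venule and 18576.5 in artery cells. In PyMT they were at 9557.7 CPM in capillary, 9590.9 in tip, 8715.9 in venule and 13275.8 in artery cells. Lymphatic cells had the lowest summed level of these 5 endothelial classes, at 5876.1 CPM in KPC and 6617.0 in PyMT. Much of the sum was 1 gene. Sparc, a collagen-binding matricellular protein, was at 4455.4 CPM in KPC capillary, 4886.6 in tip, 3379.7 in venule and 6170.5 in artery cells, and at 5050.1, 4811.0, 3585.0 and 5899.7 CPM in the same PyMT classes.

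**Figure D1:**
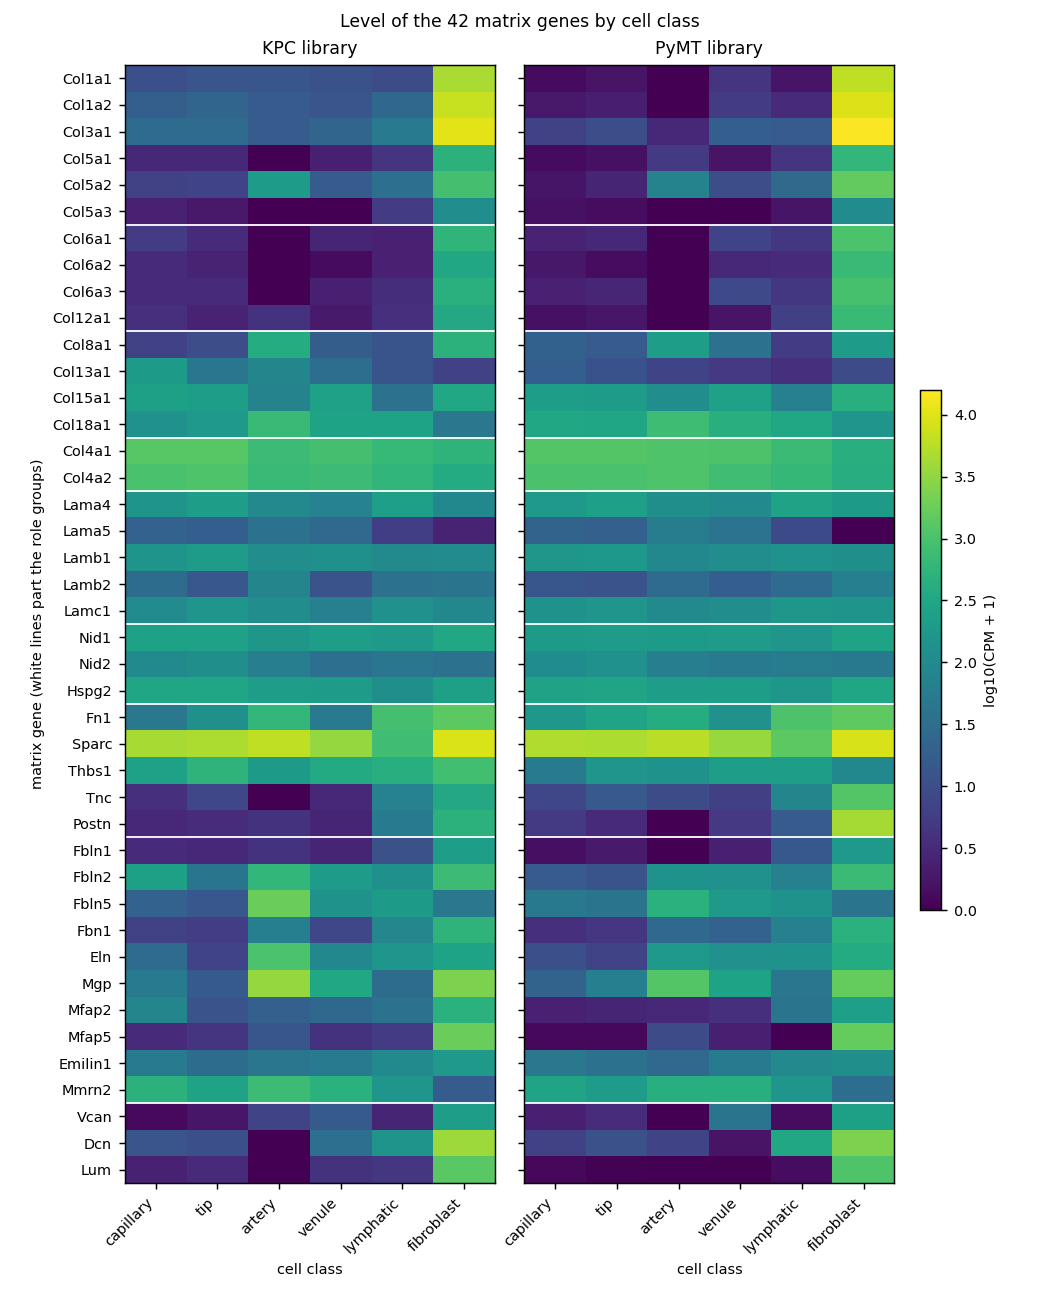
Level of each of the 42 matrix genes (rows, grouped by role) in the capillary, tip, artery, venule, lymphatic and fibroblast classes (columns) of the KPC and PyMT libraries, coloured by log10(CPM + 1). Collagen IV genes and Sparc are high in every blood endothelial class, elastic fibre genes stand out in the artery class, and most fibrillar collagens are far higher in the fibroblast class than in the endothelial classes.

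Free RNA from lysed cells can enter every droplet, so each level was set beside the level that fibroblast RNA alone would give. Genes of a fibroblast list (Serpinf1, Pdgfra, Clec3b, Mfap4, Islr and Sfrp2) were taken as its measure. By these genes fibroblast RNA made up 0.329% of the UMIs in KPC capillary, 0.128% in tip and 0.225% in venule cells, and 0.228%, 0.177% and 0.301% in PyMT. A gene was counted as above that level where it was at least 4-fold higher with at least 10 UMIs in a blood endothelial class. In KPC 29 of the 42 genes were above it, beside 99.8% of all genes for which the level could be set, and in PyMT 27 were, beside 99.6%. Of the 42 genes, 27 were above it in both libraries. No share over all genes was counted for both libraries together. The 2 genes above it in KPC only were Col5a2 and Fbln1.

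Genes of the basement membrane, most endothelial collagens and most elastic fibre genes stood far above fibroblast RNA in at least 1 class, as nearly all genes did. Because the shares are small, a gene at equal CPM in a class and in fibroblasts also stands far above this level. The folds therefore do not show that a gene is higher in endothelial cells than in fibroblasts. Col8a1 reached at most 14.36-fold in KPC and 57.75-fold in PyMT. These folds rest on few fibroblast UMIs, so their intervals, here a normal approximation on the log scale for counting error, are wide. Mmrn2, an endothelial surface matrix protein, was 13714.4-fold [7251.2, 25938.5] above it in KPC venule cells and 4340.7-fold [1349.7, 13960.1] in PyMT venule cells. Col13a1, a transmembrane collagen, was 10480.3-fold [5133.7, 21395.3] above it in KPC capillary cells, where fibroblasts had 11 UMIs. In PyMT capillary cells it was 912.8-fold [125.6, 6633.4] above it, from 1 fibroblast UMI. Lama5, a laminin chain of mature vessels, was 8569.6-fold [2543.7, 28871.2] above it in KPC tip cells, from 3 fibroblast UMIs.

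By this measure the other 13 genes were under 4-fold in both libraries or had too few UMIs to tell: Col1a1, Col1a2, Col3a1, Col5a1, Col5a3, Col6a1, Col6a2, Col6a3, Col12a1, Postn, Mfap5, Dcn and Lum. Col1a1, a chain of collagen I, was at 9.77 to 12.4 CPM in the 4 KPC blood endothelial classes and at 4716.3 CPM in KPC fibroblasts, at most 2.05-fold above the level that fibroblast RNA gives. In PyMT it was at 0 to 3.33 CPM in those classes and 6338.6 CPM in fibroblasts. In KPC the 5 of 1305 tip cells with most UMIs of a gene held 68.57% of Col1a1, 62.83% of Col1a2 and 54.36% of Col3a1 UMIs. The measure does not tell free RNA spread over droplets from fibroblast RNA in a few cells, and this was not tested. Lum was part of the rule that picked fibroblasts, so its place here is a description. Values next to the 4-fold mark were 4.06-fold for Mfap2 in PyMT, inside it, and 3.93-fold for Dcn and 3.80-fold for Col6a3 in KPC, outside it.

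The artery class went furthest apart of the 4 blood endothelial classes on this measure. By the same genes its fibroblast share came to 28.6% in KPC and 5.75% in PyMT, yet all 196 and 62 UMIs behind these shares were of 1 gene, Serpinf1, which encodes the secreted factor PEDF. The other 5 fibroblast genes had 0 UMIs in both artery classes. Serpinf1 was part of the measure in the other blood endothelial classes too. Without it, PyMT list UMIs fell from 64 to 21 in capillary, 51 to 7 in tip and 10 to 1 in venule cells. The PyMT shares became 0.1251%, 0.04072% and 0.05045%. In KPC the UMIs fell from 25 to 11, 23 to 10 and 14 to 8, and the shares became 0.2498%, 0.09571% and 0.222%. PyMT cells with keratin UMIs had 993 UMIs of the list, and 38 without Serpinf1. With Serpinf1 left out, a choice made after its values were seen, 34 genes in KPC, 32 in PyMT and 30 in both were above the fibroblast level, and the 13 genes above it in neither library fell to 6: Col1a1, Col1a2, Col3a1, Col5a3, Mfap5 and Lum. Col5a1, Col6a2, Col6a3, Col12a1 and Postn were then above it in KPC, and Col5a2, Col6a1, Col6a3, Fbln1 and Dcn in PyMT. With Col1a1, Col1a2 and Col3a1 as the measure, 8 genes were above it in neither library. Col1a1, Col1a2 and Col3a1 are among these 8, and as the measure itself their place was largely set in advance. Genes above it in all 4 classes of both libraries numbered 11, and 23 with Serpinf1 left out. No share over all genes was counted for these other measures or for all 4 classes, so these counts have no background. The place of the collagen VI genes, Col12a1, Postn and Dcn beside fibroblast RNA thus depends on the genes that measure it.

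**Figure D2:**
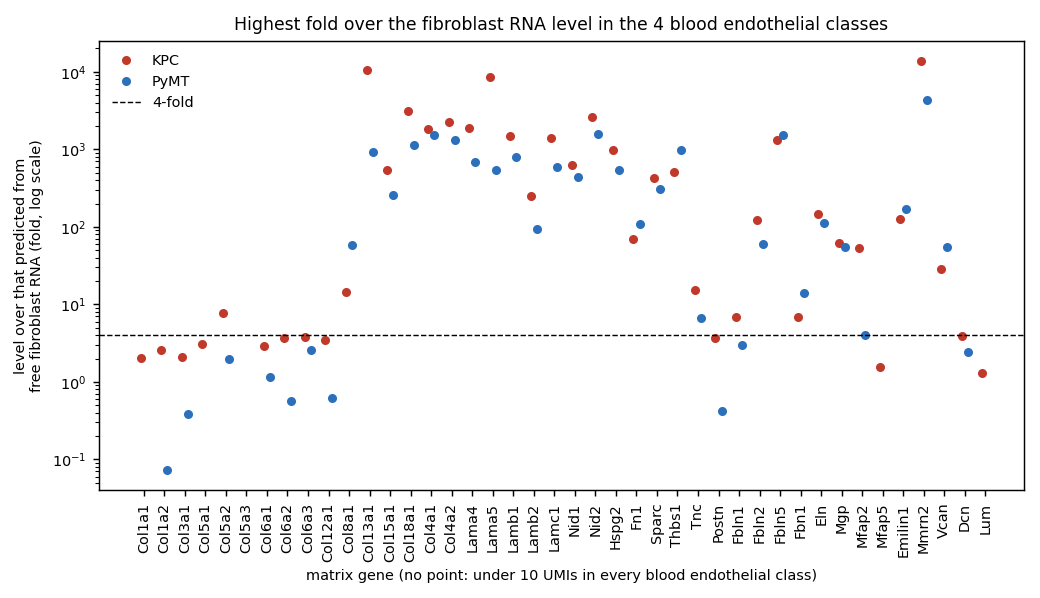
Highest fold of each matrix gene (horizontal axis) over the level that fibroblast RNA would give, in any blood endothelial class with at least 10 UMIs (vertical log axis), for KPC and PyMT, with a dashed line at 4-fold. The 13 genes that are not above it in either library lie below the line or have no point, and Mmrn2 and Col13a1 lie highest in KPC.

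Basement membrane genes differed less than 2-fold, as a sum, across the blood vessel classes. The 10 genes of collagen IV, laminins and linkers summed to 3358.9 CPM in KPC capillary, 3667.7 in tip, 2438.3 in venule and 2365.0 in artery cells, and to 3231.1, 3389.7, 2743.8 and 3094.4 CPM in PyMT. Col4a1 and Col4a2, the chains of the common collagen IV network, led the group. Col4a1 was at 1267.1 CPM in KPC capillary, 1269.7 in tip, 930.8 in venule and 760.5 in artery cells. In PyMT it was at 1182.3, 1196.5, 1073.9 and 1115.5 CPM in the same order. Its PyMT classes differed less than its KPC classes did.

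The genes of these chains lie head to head on chromosome 8 and share a start region. Col4a1 starts at position 11312826 on the minus strand and Col4a2 at 11312805 on the plus strand (GRCm38), so their first 22 bases overlap on opposite strands. Col4a1 over Col4a2 was 1.27 [1.22, 1.33] in KPC capillary, 1.14 [1.11, 1.18] in tip, 1.24 [1.17, 1.31] in venule and 1.07 [0.890, 1.29] in artery cells. In PyMT it was 1.22 [1.19, 1.25] in capillary, 1.22 [1.19, 1.25] in tip, 1.32 [1.22, 1.42] in venule and 1.01 [0.894, 1.14] in artery cells. The artery class had the lowest ratio of these 4 in both libraries and in PyMT its interval lay below those of the other 3, while in KPC it overlapped all of them. Each molecule is counted once from its 3′ end, so the ratio is not scaled by gene length.

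Single laminin chains were less even across these classes than the sum of the group. Lama4, the α chain laid down by most endothelium, was at 146.5 CPM in KPC capillary and 215.1 CPM in tip cells, against 189.1 and 233.4 CPM in PyMT. Its venule levels were lower, at 72.63 and 102.0 CPM. Lama5 was highest in artery cells, at 37.1 CPM in KPC and 59.47 CPM in PyMT, beside 19.54 and 20.94 CPM in capillary cells. Lamb1 and Lamc1, the β and γ chains shared by most laminins, stayed between 90.23 and 201.6 CPM and between 66.49 and 161.6 CPM over the 8 class and library pairs. Lamb2, a β chain of mature basement membranes, was lower and uneven, from 10.84 CPM in PyMT tip to 80.38 CPM in KPC artery cells. Of the linkers, Nid1 was at 163.8 to 255.4 CPM and Hspg2 (perlecan) at 198.4 to 301.7 CPM. Nid2 was less even, at 33.07 CPM in venule and 122.2 CPM in tip cells of KPC, and at 52.66 and 134.6 CPM in PyMT.

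Other endothelial matrix genes took a similar course in both models. Col15a1, a basement membrane collagen, was at 240.3 CPM in KPC capillary, 224.2 in tip, 256.1 in venule and 74.19 in artery cells, and at 222.6, 199.3, 253.3 and 114.8 CPM in PyMT. It was lowest in artery cells of both libraries. Mmrn2 was at 492.3, 265.0, 475.0 and 754.3 CPM in the same order in KPC and at 288.0, 210.0, 424.0 and 442.9 CPM in PyMT, with the artery class highest and the tip class lowest in both. Emilin1, an elastic fibre glycoprotein, stayed between 26.66 and 53.19 CPM in all 8.

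Tip cells, which lead sprouting vessels, were set against capillary cells to ask which matrix genes go with sprouting. In KPC 3 of the 40 genes with enough UMIs were at least 2-fold higher in tip cells (3.76% of all genes tested) and 7 lower (7.41%). In PyMT 4 of 34 were higher (0.947%) and 0 lower (1.78%). Of 33 genes tested in both libraries, 2 were higher in both, beside 0.345% of all genes, and 0 lower in both, beside 0.858%. The median log2 ratio of the matrix genes was 0.003 in KPC and 0.12 in PyMT, beside -0.08 and -0.006 for all genes tested. All 10 basement membrane genes had the same sign in both libraries, as did 7279 of the 10727 genes tested in both. Some of these differences were very small, such as Col4a1 at 1269.7 CPM in tip and 1267.1 CPM in capillary cells of KPC. Among the 10 genes only Lamb2 in KPC (13.05 CPM in tip, 29.86 in capillary) passed 2-fold.

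Thbs1, which encodes thrombospondin 1, a matricellular protein known to restrain vessel growth, was at least 2-fold higher in tip cells of both libraries. It was at 545.9 CPM in KPC tip and 248.7 CPM in KPC capillary cells, and at 154.5 and 50.69 CPM in PyMT. Tip cells were thus higher by a log2 ratio of 1.13 [1.03, 1.24] in KPC and 1.61 [1.48, 1.74] in PyMT. Because tip cells carried more UMIs, cells were also thinned to 2000 UMIs each. A Thbs1 UMI was then found in 54.3% of 1240 tip and 31.6% of 598 capillary cells of KPC, and in 20.7% of 1941 tip and 8.75% of 2367 capillary cells of PyMT. Shallower cells were left out, 65 and 700 in KPC and 50 and 230 in PyMT, and before thinning the shares were 77.3%, 38.2%, 40.3% and 16.6%. Thbs1 was not only a tip gene: venule cells had 375.1 CPM in KPC and 216.6 CPM in PyMT, and lymphatic cells had 421.0 and 218.9 CPM. In PyMT the venule and lymphatic levels were both above the tip level.

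Tnc, which encodes tenascin C, was the other such gene, with less support: its KPC call held under 8 of 11 alternatives (lowest log2 ratio 0.68) and its PyMT call under 9 (lowest 0.84). It was at 6.82 CPM in KPC tip and 2.79 CPM in KPC capillary cells (log2 ratio 1.29 [0.31, 2.42]), and at 14.14 against 6.77 CPM in PyMT (1.06 [0.69, 1.45]). These levels are low. All 10 Tnc UMIs of KPC capillary cells came from 5 cells, so the KPC value rests on few cells. In PyMT 151 of 1991 tip and 78 of 2597 capillary cells had a Tnc UMI, and after thinning 3.35% and 1.35% did. Fn1, encoding fibronectin, was at 125.8 CPM in KPC tip and 46.33 in KPC capillary cells (1.44 [1.20, 1.69]), and at 282.4 and 173.5 CPM in PyMT, which is under 2-fold.

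Genes lower in tip cells of KPC did not repeat in PyMT. Fbln2, a fibulin of elastic fibres and basement membranes, was at 41.63 CPM in KPC tip and 238.3 in capillary cells (-2.52 [-2.70, -2.34]), but at 11.45 and 14.88 CPM in PyMT. Mfap2, a microfibril protein, was at 11.06 and 85.12 CPM in KPC (-2.94 [-3.29, -2.61]) and at 1.69 and 1.42 CPM in PyMT. Col13a1 was at 44.22 and 194.5 CPM in KPC (-2.14 [-2.32, -1.95]) and at 10.38 and 16.84 CPM in PyMT. These genes were high in KPC capillary cells and lower in the other 3 tip and capillary classes. Mgp, a calcification inhibitor of vessel walls, went at least 2-fold in opposite directions, beside 0.0559% of all genes: 14.23 CPM in tip and 53.87 in capillary cells of KPC, and 64.86 and 20.78 CPM in PyMT. Single cells carried both values. A single KPC capillary cell held 142 of 193 Mgp UMIs, and a single PyMT tip cell held 443 of 844. Without the 5 cells with most Mgp UMIs in each class, the levels were 6.51 and 7.29 CPM in KPC and 15.27 and 14.90 CPM in PyMT, and neither library passed 2-fold.

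**Figure D3:**
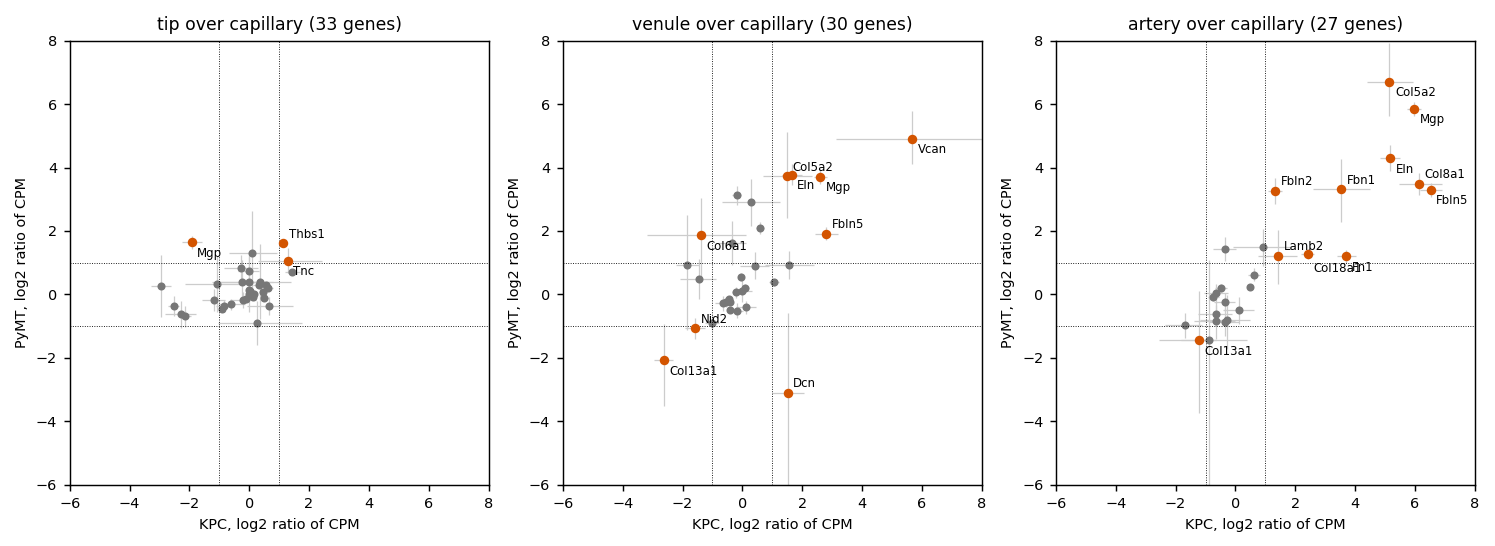
log2 ratio of each matrix gene over the capillary class in KPC (horizontal) and PyMT (vertical), for the tip (33 genes), venule (30 genes) and artery classes (27 genes), with grey bars for 95% counting intervals and dotted lines at a ratio of 1 in either direction. Labelled orange genes are past 2-fold in both libraries, with Fbln5, Mgp, Eln and Col8a1 far to the upper right for artery cells, and Mgp in tip cells and Col6a1 and Dcn in venule cells past it in opposite directions.

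Of the blood endothelial classes, artery cells had the most matrix genes past 2-fold in both libraries over capillary cells, among them elastic fibre genes and a pair of endothelial collagens. In KPC 10 of 30 genes tested were at least 2-fold higher in artery than in capillary cells (6.32% of all genes tested) and 3 lower (11.4%). In PyMT 12 of 30 were higher (9.12%) and 2 lower (8.35%). Of 27 genes tested in both, 10 were higher in both, beside 2.78% of all genes, 1 lower in both, beside 2.18%, and 0 opposite, beside 0.832%. The median over the matrix genes tested was -0.03 in KPC and 0.21 in PyMT, beside -0.03 and 0 for all genes, so the counts come from some genes and not from a shift of the whole list. By role, 5 of the 7 elastic fibre and microfibril genes tested in both were higher, Mgp among them, and 1 of the 10 basement membrane genes.

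The group of 10 elastic fibre and microfibril genes summed to 7725.5 CPM in KPC artery cells, beside 981.3 in capillary, 390.6 in tip and 1329.8 in venule cells. In PyMT it summed to 2516.1 CPM in artery cells, beside 433.9, 374.7 and 1218.6. The group includes Mgp and Mmrn2, which make up much of these sums. Mgp alone was at 3375.9 CPM in KPC and 1195.5 CPM in PyMT artery cells, and Mmrn2 at 492.3 and 288.0 CPM in capillary cells. Pericytes (123 cells in KPC, 28 in PyMT) also held RNA of this group. Over capillary cells the median log2 ratio of its tested genes was 0.71 in KPC and 2.47 in PyMT pericytes. All genes tested had medians of -0.07 and 0. In artery cells the group had medians of 2.44 and 3.30. The part of pericyte RNA in the artery levels was not tested. Fbln5, the fibulin that tethers elastin to cells, was at 1820.9 CPM in KPC artery, 138.1 in venule, 19.82 in capillary and 13.05 in tip cells. In PyMT it was at 484.0, 186.0, 49.27 and 39.58 CPM. Artery exceeded capillary by a log2 ratio of 6.52 [6.17, 6.90] in KPC and 3.30 [3.07, 3.51] in PyMT, and the order artery, venule, capillary, tip was the same in both. A Fbln5 UMI was seen in 78.1% of KPC artery and 3.70% of KPC capillary cells, and in 63 of 126 PyMT artery cells and 16.7% of PyMT capillary cells. The KPC artery class had the higher median depth of the 2 in that comparison, 2485 against 1879.5 UMIs, and after thinning the KPC shares were 65.7% and 3.18%.

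Eln, elastin itself, was at 1032.5 CPM in KPC artery and 28.75 in capillary cells (5.17 [4.84, 5.50]), and at 186.6 and 9.52 CPM in PyMT (4.29 [3.88, 4.70]). Mgp was at 3375.9 and 53.87 CPM in KPC (5.97 [5.75, 6.20]) and at 1195.5 and 20.78 CPM in PyMT (5.85 [5.63, 6.06]). In both genes the artery class was the highest of the 4 blood endothelial classes, but a few PyMT cells carried much of it. There, for each gene, the 5 of 126 artery cells with most of its UMIs held 74.3% of Mgp and 74.7% of Eln UMIs, and without those cells Mgp was at 320.3 and Eln at 48.77 CPM, still over 2-fold above capillary cells. PyMT venule cells without their own 5 highest had 107.7 CPM of Eln, so the order of artery and venule cells in PyMT rests on these few cells. In KPC the level of Mgp without its 5 highest cells was 2553.7 CPM. Fbn1, fibrillin 1, was at 64.92 and 5.58 CPM in KPC (3.54 [2.59, 4.50]) and at 26.66 and 2.68 CPM in PyMT (3.32 [2.27, 4.28]), from 21 and 13 artery UMIs. Fbln2 was at 599.7 and 238.3 CPM in KPC (1.33 [1.10, 1.56]) and at 143.5 and 14.88 CPM in PyMT (3.27 [2.85, 3.67]).

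The collagens higher in artery cells of both libraries were Col8a1, Col18a1 and Col5a2. Col8a1, a short-chain collagen of vessel intima, was at 395.7 CPM in KPC artery and 5.58 in capillary cells (6.15 [5.46, 6.91]), and at 215.3 and 19.13 CPM in PyMT (3.49 [3.15, 3.83]). Col18a1, the basement membrane collagen that yields endostatin, was at 707.9 and 133.4 CPM in KPC (2.41 [2.17, 2.64]) and at 799.7 and 328.8 CPM in PyMT (1.28 [1.13, 1.43]). Col5a2, a chain of collagen V, was at 197.9 and 5.58 CPM in KPC (5.15 [4.40, 5.95]) and at 73.82 and 0.708 CPM in PyMT (6.70 [5.62, 7.94]). In PyMT artery cells 5 cells held 63.9% of the 36 Col5a2 UMIs, and without them the level was 27.77 CPM. Col5a1, the usual partner chain of Col5a2, had 0 UMIs in KPC artery and 2 in PyMT artery cells, and Col1a1 had 4 and 0. Col13a1 was the 1 gene lower in both, at 83.47 and 194.5 CPM in KPC (-1.22 [-1.83, -0.67]) and at 6.15 and 16.84 CPM in PyMT (-1.45 [-3.74, 0.11]), the latter from 3 artery UMIs. Fn1 was also higher in artery cells, at 605.9 and 46.33 CPM in KPC and 397.8 and 173.5 CPM in PyMT, as was Lamb2, at 80.38 and 29.86 CPM in KPC and 28.71 and 12.28 CPM in PyMT. Of the genes higher in artery cells of both libraries, some were under 4-fold there against the fibroblast level with Serpinf1 counted. In KPC these were Fbn1 (0.423-fold), Col5a2 (0.770-fold), Fn1 (1.52-fold), Col8a1 and Fbln2 (both 2.74-fold). In PyMT they were Col5a2 (0.817-fold), Fbn1 (0.970-fold) and Fbln2 (3.46-fold). Other matrix genes were under 4-fold in artery cells too. Among them were Col15a1 (0.792-fold), Thbs1 (0.819-fold) and Sparc (2.40-fold) in KPC and Emilin1 (3.82-fold) in PyMT. With Serpinf1 left out, the measure had 0 UMIs and was set at its floor of 3, and the lowest of these values were then at least 16.02-fold in KPC (Fbn1) and at least 10.08-fold in PyMT (Col5a2).

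The promoters of 4 genes are shown to let their sequences be set side by side. Fbln5 and Col8a1 were higher in artery than in capillary cells of both libraries, Tnc was higher in tip than in capillary cells, and Col13a1 was higher in capillary than in artery or venule cells. The genes themselves span chr12:101746565-101819055 (Fbln5), chr16:57624258-57754737 (Col8a1), chr4:63959785-64047015 (Tnc) and chr10:61838236-61979108 (Col13a1). Each sequence is the 250 bases before the start site in RefSeq (GRCm38.p6), 5′ to 3′ on the gene's strand. The windows are chr12:101819120-101819369 for Fbln5, chr16:57754738-57754987 for Col8a1, chr4:64047016-64047265 for Tnc and chr10:61979109-61979358 for Col13a1, all on the minus strand. Capitals mark 4 motifs searched on both strands. The TATA box was searched as TATAAA. The CCAAT box was searched by the letters of its name. The GC box was searched as GGGCGG. The core of the RBPJ motif of Notch signaling was searched as TGGGAA.
Fbln5: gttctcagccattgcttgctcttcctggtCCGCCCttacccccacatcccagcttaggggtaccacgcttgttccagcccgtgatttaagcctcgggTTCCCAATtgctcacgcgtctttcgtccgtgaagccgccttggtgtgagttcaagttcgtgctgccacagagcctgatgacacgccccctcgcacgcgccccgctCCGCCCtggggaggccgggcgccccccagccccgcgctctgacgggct
Col8a1: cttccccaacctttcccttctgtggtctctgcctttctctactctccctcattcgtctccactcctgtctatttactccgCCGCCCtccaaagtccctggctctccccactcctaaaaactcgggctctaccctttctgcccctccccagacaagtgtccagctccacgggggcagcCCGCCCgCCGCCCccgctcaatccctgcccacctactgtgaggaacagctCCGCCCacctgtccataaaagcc
Tnc: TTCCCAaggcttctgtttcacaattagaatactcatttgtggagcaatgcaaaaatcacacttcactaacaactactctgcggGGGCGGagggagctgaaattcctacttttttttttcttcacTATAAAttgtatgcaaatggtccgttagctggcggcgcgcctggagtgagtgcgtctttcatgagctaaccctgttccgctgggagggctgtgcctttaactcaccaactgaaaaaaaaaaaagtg
Col13a1: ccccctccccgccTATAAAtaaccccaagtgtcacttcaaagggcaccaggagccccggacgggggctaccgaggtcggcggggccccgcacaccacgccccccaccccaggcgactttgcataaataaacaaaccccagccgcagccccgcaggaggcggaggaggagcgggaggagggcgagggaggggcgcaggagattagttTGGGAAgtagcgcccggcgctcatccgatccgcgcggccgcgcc

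Col8a1 held 4 GC boxes and none of the other motifs. Fbln5 held 2 GC boxes and 1 run in which an RBPJ core and a CCAAT box share bases. Tnc held 1 TATA box, 1 GC box and 1 RBPJ core, and Col13a1 held 1 TATA box and 1 RBPJ core. The TATA box letters began 126 bases before the start site in Tnc and 237 bases before it in Col13a1. Of the 28 matrix genes with a promoter entry, 16 held a GC box, 10 a CCAAT box, 9 an RBPJ core and 4 a TATA box. Of all 32851 promoters of that length, 32.74%, 33.85%, 21.59% and 12.37% did. These are matches of letters, and no binding was measured.

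An Mgp UMI was found in some artery cells and not in others. In KPC 49 artery cells had an Mgp UMI and 56 did not, with median depths of 2406 and 2575 UMIs. In PyMT 19 had it and 107 did not, at 3015 and 3523 UMIs. The following is a description of these cells, since Mgp is itself one of the matrix genes. Eln was found in 77.6% of KPC artery cells with Mgp and 12.5% without, and in 52.6% and 5.61% in PyMT. Col5a2 was found in 49.0% and 3.57% in KPC and in 63.2% and 1.87% in PyMT. Fbln2 was in 83.7% and 39.3% in KPC and in 73.7% and 18.7% in PyMT. The cells with Mgp, slightly shallower in both libraries, had each of these genes more often.

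Basement membrane RNA ran the other way in the same cells. The 10 genes summed to 1156.4 CPM in KPC artery cells with Mgp and 3278.1 CPM in those without, and to 1528.1 and 3362.8 CPM in PyMT. Col4a1 was at 387.9 and 1042.1 CPM in KPC and at 434.6 and 1232.2 CPM in PyMT. The level without Mgp was close to that of capillary cells. The 8 pan-endothelial genes together differed little, at 5710.3 and 5302.5 CPM in KPC and at 5607.7 and 5197.9 CPM in PyMT. Genes of smooth muscle (Acta2, Myh11, Tagln and Cnn1, chosen after values were seen) were higher in artery cells with Mgp, at 804.5 and 255.1 CPM in KPC and 1696.3 and 132.1 CPM in PyMT. Serpinf1 was too, at 1041.5 and 276.8 CPM in KPC and 308.4 and 96.08 CPM in PyMT. The part of smooth muscle RNA in these levels was not tested. The 5 fibroblast genes other than Serpinf1 had 0 UMIs in all 4 sets of cells.

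**Figure D4:**
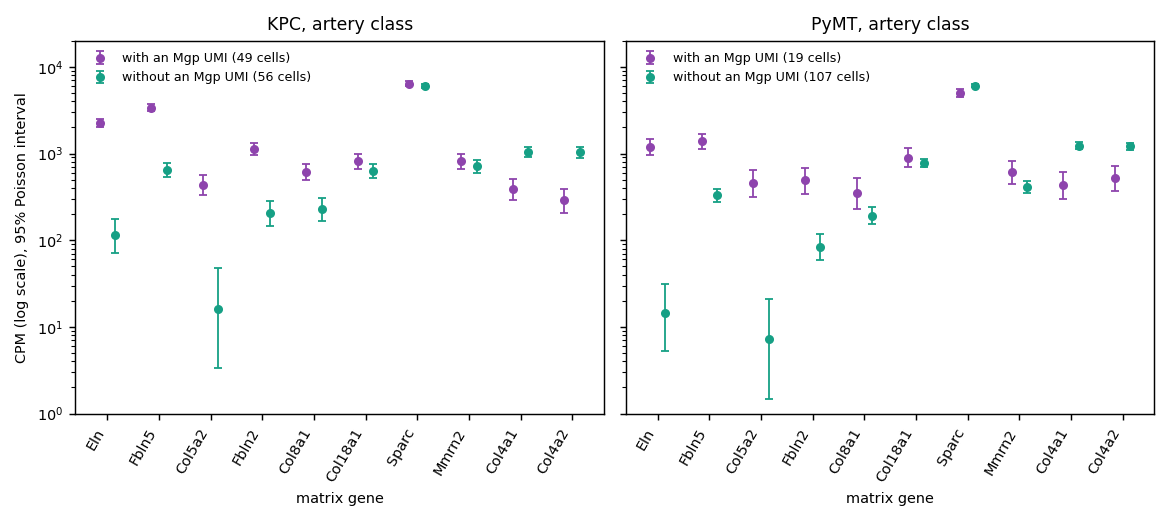
Level (CPM, log axis) of 10 matrix genes in artery cells with and without an Mgp UMI (49 and 56 cells in KPC, 19 and 107 in PyMT), with bars for 95% counting intervals. Eln is higher and Col4a1 and Col4a2 are lower in cells with Mgp in both libraries.

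Venule cells, the exit side of the capillary bed, took a middle place between capillary and artery cells in some genes. Among these were Fbln5, Eln and Mgp and the collagen genes Col5a2, Col8a1 and Col18a1. In KPC 8 of 32 genes tested were at least 2-fold higher than in capillary cells (3.73% of all genes tested) and 6 lower (6.18%), and in PyMT 11 of 33 were higher (5.38%) and 3 lower (3.97%). Of 30 tested in both, 5 were higher in both, beside 1.61% of all genes, 2 lower, beside 1.15%, and 2 opposite, beside 0.397%. Fbln5 exceeded capillary by a log2 ratio of 2.80 [2.43, 3.19] in KPC and 1.92 [1.71, 2.12] in PyMT. Eln was at 90.70 CPM in KPC venule and 28.75 in capillary cells (1.66 [1.32, 2.00]), and at 130.7 and 9.52 CPM in PyMT (3.78 [3.44, 4.12]). Mgp was at 328.7 CPM in KPC venule and 272.0 CPM in PyMT venule cells, with ratios of 2.61 [2.38, 2.84] and 3.71 [3.48, 3.94]. For Fbln5, Eln and Mgp venule cells were above capillary and below artery cells in both libraries. The exception was Eln in PyMT, where the order of venule and artery cells turned without the 5 highest cells of each class. Venule levels of Col8a1 (16.37 CPM in KPC and 36.66 CPM in PyMT) and Col18a1 (274.8 and 426.0 CPM) also lay between those of capillary and artery cells, as did Col5a2.

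Vcan, the large proteoglycan versican, was far higher in venule than in capillary cells. It was at 14.32 CPM in KPC venule cells (42 UMIs) and 0.279 CPM in capillary cells (1 UMI), a log2 ratio of 5.68 [3.12, 11.02]. In PyMT it was at 40.0 and 1.34 CPM (4.90 [4.10, 5.77]). Artery cells had 2 Vcan UMIs in KPC and 0 in PyMT, where the count of 0 allows up to 3 UMIs. A Vcan UMI was present in 5.93% of KPC and 11.1% of PyMT venule cells, so most venule cells had none at this depth. Col5a2 was also higher in venule cells of both, at 15.68 and 5.58 CPM in KPC and at 9.33 and 0.708 CPM in PyMT. Nid2, a nidogen, was lower, at 33.07 and 97.96 CPM in KPC (-1.57 [-1.91, -1.24]) and at 52.66 and 110.3 CPM in PyMT (-1.07 [-1.41, -0.74]). Col13a1 was lower too, with ratios of -2.63 [-2.96, -2.32] and -2.07 [-3.54, -0.93].

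The 2 genes that went opposite ways in venule cells rest on few UMIs or few cells. Col6a1, a chain of the microfibril-forming collagen VI, had 5 venule and 16 capillary UMIs in KPC (-1.39 [-3.19, 0.13]) and 9 and 21 in PyMT (1.86 [0.55, 3.05]). Dcn, the proteoglycan decorin, was at 33.41 and 11.72 CPM in KPC (1.51 [0.98, 2.07]) and at 0.667 CPM, from 1 UMI, and 5.75 CPM in PyMT (-3.11 [-8.43, -0.58]). A single KPC venule cell held 88 of the 98 Dcn UMIs and a single capillary cell 31 of 42. Without the 5 cells with most Dcn UMIs in each class the KPC levels were 1.72 and 1.41 CPM, under 2-fold. By the 6 fibroblast genes neither Col6a1 nor Dcn was above the level of fibroblast RNA in a blood endothelial class of either library. With Serpinf1 left out both were in PyMT, and with Col1a1, Col1a2 and Col3a1 as the measure both were in PyMT and Dcn was in KPC venule cells (4.44-fold).

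Lymphatic cells, which drain tissue fluid and have a thin basement membrane, were set beside capillary cells as a vessel outside the blood circulation. In KPC 13 of 37 genes were at least 2-fold higher (10.5% of all genes tested) and 9 lower (10.4%), and in PyMT 19 of 34 were higher (11.0%) and 5 lower (6.43%). Of 33 tested in both, 9 were higher in both, beside 6.29% of all genes, 4 lower, beside 4.16%, and 3 opposite, beside 0.401%. Fn1 was at 908.3 CPM in KPC lymphatic and 46.33 in capillary cells (4.29 [4.07, 4.53]), and at 1064.4 and 173.5 CPM in PyMT (2.62 [2.54, 2.70]), the highest level of Fn1 in the 5 endothelial classes. Tnc was at 70.78 and 79.08 CPM, Fbn1 at 86.86 and 66.34 CPM and Eln at 161.0 and 142.8 CPM in lymphatic cells. Fbln5 was at 194.6 CPM in KPC and 135.3 in PyMT lymphatic cells, Dcn at 149.2 and 330.9 CPM, Postn (periostin) at 52.45 and 15.74 CPM, Col5a2 at 32.71 and 27.73 CPM and Fbln1 at 9.87 and 13.49 CPM, all at least 2-fold above capillary cells of the same library. The 3 genes that went opposite ways were Mfap2, Col8a1 and Col6a1. Mfap2 was at 35.25 CPM in lymphatic and 85.12 in capillary cells of KPC (-1.27 [-1.58, -0.97]), and at 39.73 and 1.42 CPM in PyMT (4.81 [4.08, 5.62]), so its lymphatic levels were close and its capillary levels were not. Col8a1 was at 11.28 and 5.58 CPM in KPC (1.02 [0.21, 1.87]) and at 4.50 and 19.13 CPM in PyMT (-2.09 [-3.06, -1.26]). Without the 5 cells with most Col8a1 UMIs in each class the KPC levels were 3.70 and 2.54 CPM, under 2-fold. Col6a1 had 5 lymphatic and 16 capillary UMIs in KPC (-1.66 [-3.47, -0.15]) and 10 and 21 in PyMT (1.18 [-0.07, 2.33]). Sparc was lower, at 821.2 CPM in KPC and 1369.9 CPM in PyMT, with ratios of -2.44 [-2.50, -2.38] and -1.88 [-1.93, -1.83], as were Col13a1, Col15a1 and Lama5. Mgp, so high in artery cells, was at 29.33 and 44.23 CPM in lymphatic cells.

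Between the models, the same class was compared at different depth, in 1 library each. In capillary cells 14 of 34 genes were at least 2-fold higher in KPC (11.1% of all genes tested) and 6 lower (4.81%). In tip cells 12 of 40 were higher (5.30%) and 5 lower (2.39%), in artery cells 8 of 25 higher (6.44%) and 0 lower (3.06%), and in venule cells 5 of 31 higher (4.25%) and 4 lower (2.04%). Collagen IV did not pass 2-fold in any of the 4 classes, and 18 of the 35 genes tested in at least 2 of them passed it the same way in at least 2, beside 6.83% of all genes so tested. Of these, 13 were higher in KPC, beside 4.82% of all genes, and 5 lower, beside 2.01%. The 13 include Col1a1, Col1a2, Col3a1 and Dcn, which the fibroblast list did not put above the fibroblast level. They also include Mgp, whose capillary log2 ratio went from 1.37 to -1.03 without the 5 cells with most Mgp UMIs in each class.

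Col13a1 was higher in KPC in all 4 classes. It was at 194.5 CPM in KPC and 16.84 CPM in PyMT capillary cells (3.53 [3.31, 3.76]), and the ratio was 2.09 [1.80, 2.39] in tip, 3.76 [2.06, 6.13] in artery and 2.97 [1.79, 4.46] in venule cells. A Col13a1 UMI was found in 35.4% of KPC and 6.78% of PyMT capillary cells, although the PyMT cells were deeper, and in 22.9% and 3.21% after thinning. Mfap2 was at 85.12 and 1.42 CPM in capillary cells (5.91 [5.22, 6.68]), and the ratio was 2.71 [2.03, 3.45] in tip and 3.16 [1.74, 5.08] in venule cells. Fbln2 was at 238.3 and 14.88 CPM in capillary cells (4.00 [3.77, 4.24]), with 1.86 [1.58, 2.15] in tip and 2.06 [1.66, 2.48] in artery cells. Thbs1 was higher in KPC capillary (2.30 [2.15, 2.44]) and tip cells (1.82 [1.75, 1.90]).

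Fn1 was lower in KPC, by a log2 ratio of -1.91 [-2.14, -1.68] in capillary, -1.17 [-1.26, -1.07] in tip and -1.38 [-1.70, -1.07] in venule cells, while in artery cells it was at 605.9 CPM in KPC and 397.8 CPM in PyMT. Fbln5 went both ways. It was lower in KPC capillary (-1.31 [-1.69, -0.96]) and tip cells (-1.60 [-1.91, -1.30]) and higher in KPC artery cells (1.91 [1.69, 2.14]). In artery cells Eln (2.47 [2.13, 2.82]) and Mgp (1.50 [1.35, 1.65]) were higher in KPC as well. The share of artery cells with an Mgp UMI was 46.7% in KPC and 15.1% in PyMT, at median depths of 2485 and 3439 UMIs. Col1a1, Col1a2 and Col3a1 were also higher in KPC capillary and tip cells, where they were under 4-fold above the fibroblast level, and KPC had the larger fibroblast class. In KPC tip cells they were at 2.053-fold, 2.545-fold and 2.102-fold of that level. The part of fibroblast RNA in these 3 differences was not tested.

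**Figure D5:**
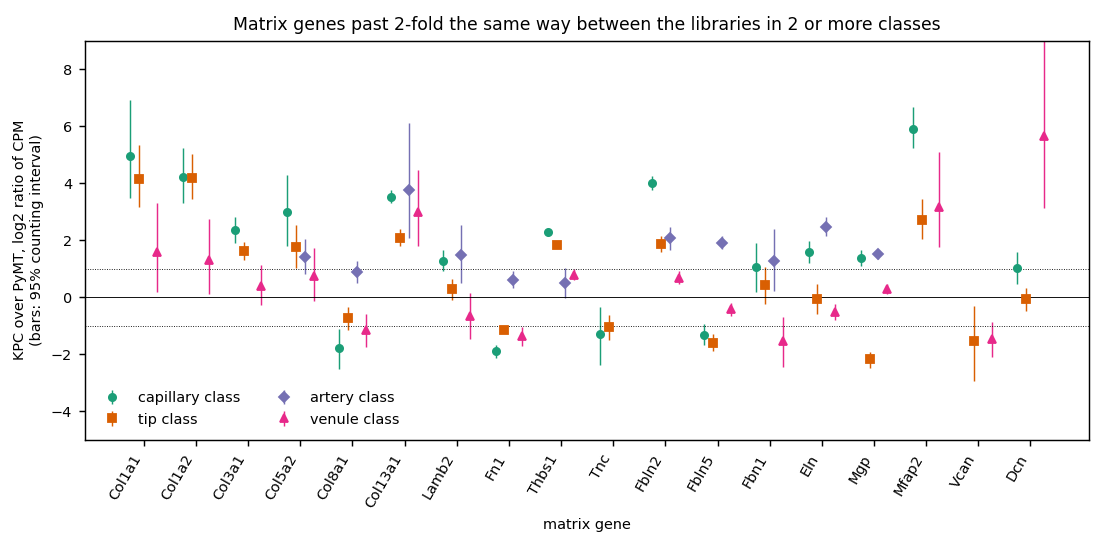
log2 ratio of KPC over PyMT (vertical, with bars for 95% counting intervals and dotted lines at 2-fold) for the 18 matrix genes past 2-fold the same way in at least 2 classes, with 1 symbol each for capillary, tip, artery and venule cells. Col13a1 is above the upper line in all 4 classes, Fn1 is below the lower line in capillary, tip and venule cells, and Fbln5 is below it in capillary and tip cells and above the upper line in artery cells.

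Other genes of the matrix pathway were counted from lists of genes that work with these. The counts stand beside the shares of all genes past 2-fold in both libraries. For tip over capillary 0.345% were higher and 0.858% lower. The shares were 1.61% and 1.15% for venule over capillary, and 2.78% and 2.18% for artery over capillary. Of 25 collagen synthesis genes (prolyl and lysyl hydroxylases, chaperones and cross-linking enzymes), 20 were tested in both libraries for tip over capillary and 0 passed 2-fold the same way. For venule over capillary 0 of 19 did, and for artery over capillary 1 of 19 was higher, the prolyl hydroxylase gene P4ha2, and 1 lower, the procollagen processing enhancer gene Pcolce. Serpinh1, the collagen chaperone, was at 2355.2 CPM in KPC tip and 1693.3 CPM in KPC capillary cells. Of 21 other basement membrane genes, only 4 had enough UMIs in both libraries in each of the 3 comparisons, with 0 past 2-fold in tip cells and Npnt (nephronectin) higher in venule and artery cells. Of 24 other matrix genes, 15 were tested for tip cells, with 0 higher and Ltbp1, a latent TGF-β binding protein, lower in both, with log2 ratios of -1.79 [-3.04, -0.59] in KPC and -1.03 [-2.58, 0.37] in PyMT. It had 11 tip UMIs in KPC and 7 in PyMT. In venule cells 5 of 14 were higher (Bgn, encoding biglycan, Tgfbi, Efemp1, Cthrc1 and Aebp1) and 1 lower (Sparcl1), and in artery cells 3 of 11 were higher (Ltbp4, Vwf and Cthrc1).

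Reads of opposite strands cannot be told apart where the counting did not use strand, which is not given in the sources used here. Of the 42 genes, 12 overlap another counted gene that runs on the other strand (GENCODE M21), Col4a1, Col4a2, Col18a1, Fn1, Thbs1, Eln, Fbn1, Nid2 and Vcan among them, and 0 overlap one on the same strand.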

How the data were processed

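The authors sequenced 10x Genomics 3′ libraries of sorted cells and deposited whole-number UMI counts, made with Cell Ranger (3.0 in the submitters' notes, 3.0.2 in the matrix headers) on mm10. The gel bead kit is named v2 in the labels, and it is named differently elsewhere in the study's text. The counts were used as deposited. Cells needed 500 genes and a mitochondrial share below 10%, doublets were not called, and each cell was put in the first class whose gene pair reached its minimum, in the order keratin (Krt8 and Krt18, 5 UMIs), fibroblast (Lum and Dpt, 3), lymphatic (Mmrn1 and Prox1, 3), pericyte (Notch3 and Higd1b, 2), venule (3), artery (2), tip (3) and capillary (2). Of the cells, 4122 in KPC and 5603 in PyMT met no rule.

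UMIs were summed per class and library and scaled to CPM, with exact Poisson intervals for levels and exact conditional binomial intervals for log2 ratios. With 1 library per model there is no test and no p-value. The calculations were tested on simulated data. The fibroblast level of a gene is its CPM in fibroblasts times the ratio of the fibroblast list's CPM in the class to that in fibroblasts. All 42 genes are accounted for, by name or by count, with levels for those past 2-fold the same way or opposite ways in both libraries or above the fibroblast level in both, and from the other lists for those past 2-fold in both for tip over capillary. Thinning drew 2000 UMIs per cell with seed 1. The genes, lists and classes were chosen with earlier results of these data known. Gene positions are from GENCODE M21 and promoters from RefSeq. Python 3.11.15, numpy 2.4.6, scipy 1.17.1, pandas 2.3.3 and matplotlib 3.10.9 were used.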

Additional observations from a re-analysis of the deposited data

Results flagged for a closer look

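In 6 comparisons, of 5 genes, the ratio in KPC pointed one way and that in PyMT the other, past 2-fold in both libraries. With 1 library per model the difference was not tested. Mgp in tip over capillary cells had a log2 ratio of -1.92 in KPC and 1.64 in PyMT, and -0.16 and 0.04 without the 5 cells of each class with most Mgp UMIs. Col6a1 in venule over capillary cells had -1.39 in KPC and 1.86 in PyMT, from 21 and 30 UMIs in all. Dcn in venule over capillary cells had 1.51 in KPC, where a single venule cell held 88 of 98 UMIs, and -3.11 in PyMT, from 1 venule UMI. Without the 5 cells with most Dcn UMIs in each class the KPC ratio was 0.29. In lymphatic over capillary cells Mfap2 had -1.27 in KPC and 4.81 in PyMT, Col8a1 had 1.02 and -2.09, and Col6a1 had -1.66 and 1.18. Without the 5 cells of each class with most Col8a1 UMIs, Col8a1 was at 3.70 CPM in lymphatic and 2.54 CPM in capillary cells of KPC, under 2-fold.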

How the results depend on the processing

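No paired analysis was possible because each model had 1 library and no value comes from a test. The limits are these: differences between models cannot be told apart from differences between libraries, artery classes hold 105 and 126 cells, and low genes rest on few UMIs.

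Of 258 counts of genes recomputed under an alternative, 208 stayed within 1.5 times and 50 did not. Past 2-fold in both libraries under all 11 alternatives for single genes were 7 of the 11 artery genes (Col18a1, Col5a2, Col8a1, Eln, Fbln5, Fbn1 and Mgp), 5 of the 7 venule genes (Col13a1, Eln, Fbln5, Mgp and Vcan) and 0 of the 2 tip genes: Thbs1 in KPC fell to 0.99 at lowest and Tnc to 0.68 in KPC and 0.84 in PyMT. Counts of genes above the fibroblast level in any blood endothelial class stayed within 1.5 times under each alternative tried. The genes above it in neither library went from 13 to 6 without Serpinf1, and those above it in all 4 classes of both libraries from 11 to 23. No share over all genes was counted beside these changes.

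Counts that moved are given for each comparison, and where no cause is named the cause was not tested. For tip over capillary, the higher genes in KPC went from 3 to 5 with every class threshold raised by 1 UMI or without the 5 cells with most UMIs of a gene, and to 6 as a mean over cells, and the lower genes from 7 to 4 with raised thresholds. In PyMT the higher genes went from 4 to 2 after thinning. The lower genes there went from 0 to 3 after thinning, to 2 as a mean over cells or with no minimum of UMIs, and to 1 without cycling cells, the 8% deepest cells, the top 5 cells or cells with fibroblast RNA. For venule over capillary in PyMT, the higher genes went from 11 to 7 after thinning and 17 with no minimum, and the lower from 3 to 5 after thinning, 1 with raised thresholds and 6 without the deepest cells. For artery over capillary, the lower genes in KPC went from 3 to 5 without cells of several vessel rules, cycling cells or the deepest cells, to 7 after thinning or with raised thresholds, and to 8 without the top 5 cells. In PyMT they went from 2 to 4 without cells of several rules or the deepest cells, 6 with raised thresholds, 5 without the top 5 cells and 1 without cells with fibroblast RNA.

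For KPC over PyMT, the higher capillary genes went from 14 to 8 after thinning, with raised thresholds or without the top 5 cells. The higher tip genes went from 12 to 7 after thinning or without cells with fibroblast RNA, and the lower from 5 to 3 after thinning or without cells with a Krt8 or Krt18 UMI. The higher artery genes went from 8 to 5 after thinning and 3 with a minimum of 1000 genes and a mitochondrial share below 5%. The lower artery genes went from 0 to 1 without cells of several rules, cycling cells or cells with fibroblast RNA, to 2 after thinning, with raised thresholds, as a mean over cells or without the deepest cells, and to 3 without the top 5 cells. The higher venule genes went from 5 to 3 after thinning or without the top 5 cells and to 2 without cells with fibroblast RNA, and the lower from 4 to 2 as a mean over cells and 9 with no minimum.

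Of 1023 log2 ratios of single genes, 813 moved little, 200 moved and 10 changed sign. Dcn in KPC venule over capillary became -1.31 without cells of several rules, -0.16 without cells with fibroblast RNA and -1.68 without cells with a Krt8 or Krt18 UMI. Col6a1 in PyMT venule over capillary became -1.13 without the deepest cells. For KPC over PyMT in capillary cells, Mgp became -0.017 with raised thresholds, -0.37 without cells with fibroblast RNA and -1.03 without the top 5 cells, and Dcn -0.90 without cells with fibroblast RNA. In venule cells Col1a1 became -0.13 and Col1a2 -0.081 without cells with fibroblast RNA. Leaving out cells by Krt8 or Krt18, the top 5 cells and Serpinf1 were alternatives chosen after seeing the data, as were all those for KPC over PyMT outside the tip class.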

Other observations

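Barcodes that did not pass the filter had basement membrane RNA at a higher CPM than the kept cells of all classes pooled. The 10 basement membrane genes were at 3417.6 CPM in the 645 removed KPC barcodes and 2381.8 CPM in kept cells, and at 7918.0 CPM in the 720 removed PyMT barcodes and 3186.5 CPM in kept cells. The kept KPC pool includes the cells with keratin UMIs, where these genes were at 342.9 CPM. In KPC the level in removed barcodes lay between those of kept capillary (3358.9 CPM) and tip cells (3667.7 CPM). In PyMT it was above those of kept capillary (3231.1 CPM) and tip cells (3389.7 CPM). The collagen IV pair was at 4702.7 CPM in removed and 2052.4 CPM in kept PyMT barcodes. Fibrillar collagens did not follow, at 536.3 and 1367.4 CPM in KPC and 97.97 and 150.0 CPM in PyMT. The pan-endothelial list was at 5342.9 and 4334.0 CPM in KPC and at 6870.8 and 4411.5 CPM in PyMT, so it was higher in removed barcodes too, by less than the basement membrane genes in PyMT.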
